A study of Sus scrofa with 4 samples.

Results

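Enzymes that activate, oxidise, elongate, store and release fatty acids were followed in porcine (Sus scrofa) blastocysts, hollow embryos made of a trophectoderm wall, from which the placenta forms, and a small inner cell mass. Members were chosen by gene symbol alone, as every probe whose symbol begins with the name of 1 of these enzyme families, with ACSL3 and its 3 probes left out. The rule took 99 probes for 64 genes, of 13146 probes with a symbol for 10024 genes and of 43794 probes in all. The genes were placed in 10 families by symbol: acyl-CoA synthetases, the carnitine shuttle, acyl-CoA dehydrogenases and oxidases, the hydratase to dehydrogenase steps of beta-oxidation, thiolases, electron transfer flavoproteins, acyl-CoA thioesterases, elongases and desaturases, glycerolipid synthesis, and lipases. All 64 symbols are current pig gene symbols in the RefSeq table of assembly Sscrofa11.1. ACSL1, ACAT1, ECI1, ECI2, ELOVL6, FADS1 and MGLL match none of the symbols used here.

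A fatty acid is first joined to coenzyme A by a synthetase. A long-chain acyl group then enters the mitochondrion through the carnitine shuttle and is shortened by beta-oxidation, a cycle of dehydrogenation, hydration, a further dehydrogenation and thiolysis, whose first electrons pass through the electron transfer flavoproteins to the respiratory chain. Alternatively it is elongated, desaturated or esterified to glycerol as phospholipid and triacylglycerol, from which lipases free it again. Pig oocytes and embryos are known for a large store of triacylglycerol, and beta-oxidation is a source of energy for the maturing oocyte and the early embryo.

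The NEFA pools held blastocysts grown from oocytes that had met elevated non-esterified fatty acids (NEFA). In that form, not esterified to glycerol, adipose tissue releases its fat. The control pools held blastocysts grown from control oocytes. Each of 4 arrays set 1 NEFA pool against 1 control pool, with NEFA RNA in Cy3 on arrays 1 and 2 and in Cy5 on arrays 3 and 4. Pools of 10 blastocysts were taken on days 7 and 8, and the design text speaks of 4 pools but leaves unclear if these are 4 for each condition and if a pool held both days. Which fatty acids were used, at what dose and for how long is not stated in these sources, and neither condition carries any other named treatment or allele. The labels do not tie the pools to separate cultures, and the p-values therefore reflect the spread between these arrays only, which may be technical. A pool mixes all cells of 10 embryos, so fewer cells of a type and less RNA per cell cannot be told apart.

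On each array 38.3% to 49.0% of all probes exceeded the background limit of a channel, and 17145 probes were kept for testing. Of the blastocyst markers, all 7 trophectoderm genes with a probe were kept, as were both of the primitive endoderm (GATA6 and PDGFRA), while neither KLF4 nor SOX2 of the inner cell mass was. Among markers of other cells a pool could hold, 4 of 6 oocyte genes, 2 of 5 cumulus and granulosa genes and 1 of 2 sperm genes with a probe were kept. The summed signal of the trophectoderm markers ran from 16.18 to 16.39 in NEFA pools and from 16.04 to 16.42 in control pools (log2 of intensity), and that of the oocyte markers from 10.45 to 10.91 and from 10.45 to 10.80. AMH and FST were the cumulus and granulosa genes kept, while HAS2, INHBA and PTX3 were not kept. The summed signal of AMH and FST ran from 12.04 to 13.63 in NEFA pools and from 12.40 to 13.25 in control pools. Any part of cumulus cells in the results was not tested. Over all kept probes the NEFA over control ratios of different arrays correlated at r = -0.54 to 0.16, so the arrays did not share 1 pattern.

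Transcripts of beta-oxidation enzymes were above background in most pools, while several genes of fatty acid activation, elongation, desaturation and storage were not. A probe was called above background in a pool when its intensity lay more than 2 SD above the mean negative control spot of that array and channel, and it was kept when 3 or 4 pools of either condition passed. Of the 99 member probes 57 (57.6%) were kept, against 43.4% of all probes with a symbol, and 15 (15.2%) were above background in no pool, against 26.0%. The kept probes represent 42 of the 64 genes, and for 34 of these the brightest kept probe was above background in all 8 pools. In the 5 families of the carnitine shuttle and beta-oxidation 23 of 27 genes were kept, and in the other 5 families 19 of 37. Over the array 4705 of 10024 genes with a symbol were kept. Of probes, 44.4% were kept for elongases and desaturases, 50% for glycerolipid synthesis and 30% for synthetases. The first 2 of these families were thus not below the 43.4% of all probes with a symbol. Families were set by symbol, and the 23 include genes with other roles given below, such as ACAT2, ECHDC1, ACAD8 and ACADSB. No probe of the thiolases, the hydratase to dehydrogenase steps, the carnitine shuttle or the electron transfer flavoproteins was below the limit in every pool. Such probes were 3 of 21 for dehydrogenases and oxidases, 1 of 10 for synthetases, 1 of 7 each for thioesterases and lipases, 4 of 9 for elongases and desaturases and 5 of 16 for glycerolipid synthesis. Counted over probes and pools, members exceeded the limit 240 times in NEFA pools and 241 times in control pools, of 396 possible in each.

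**Figure D1:**
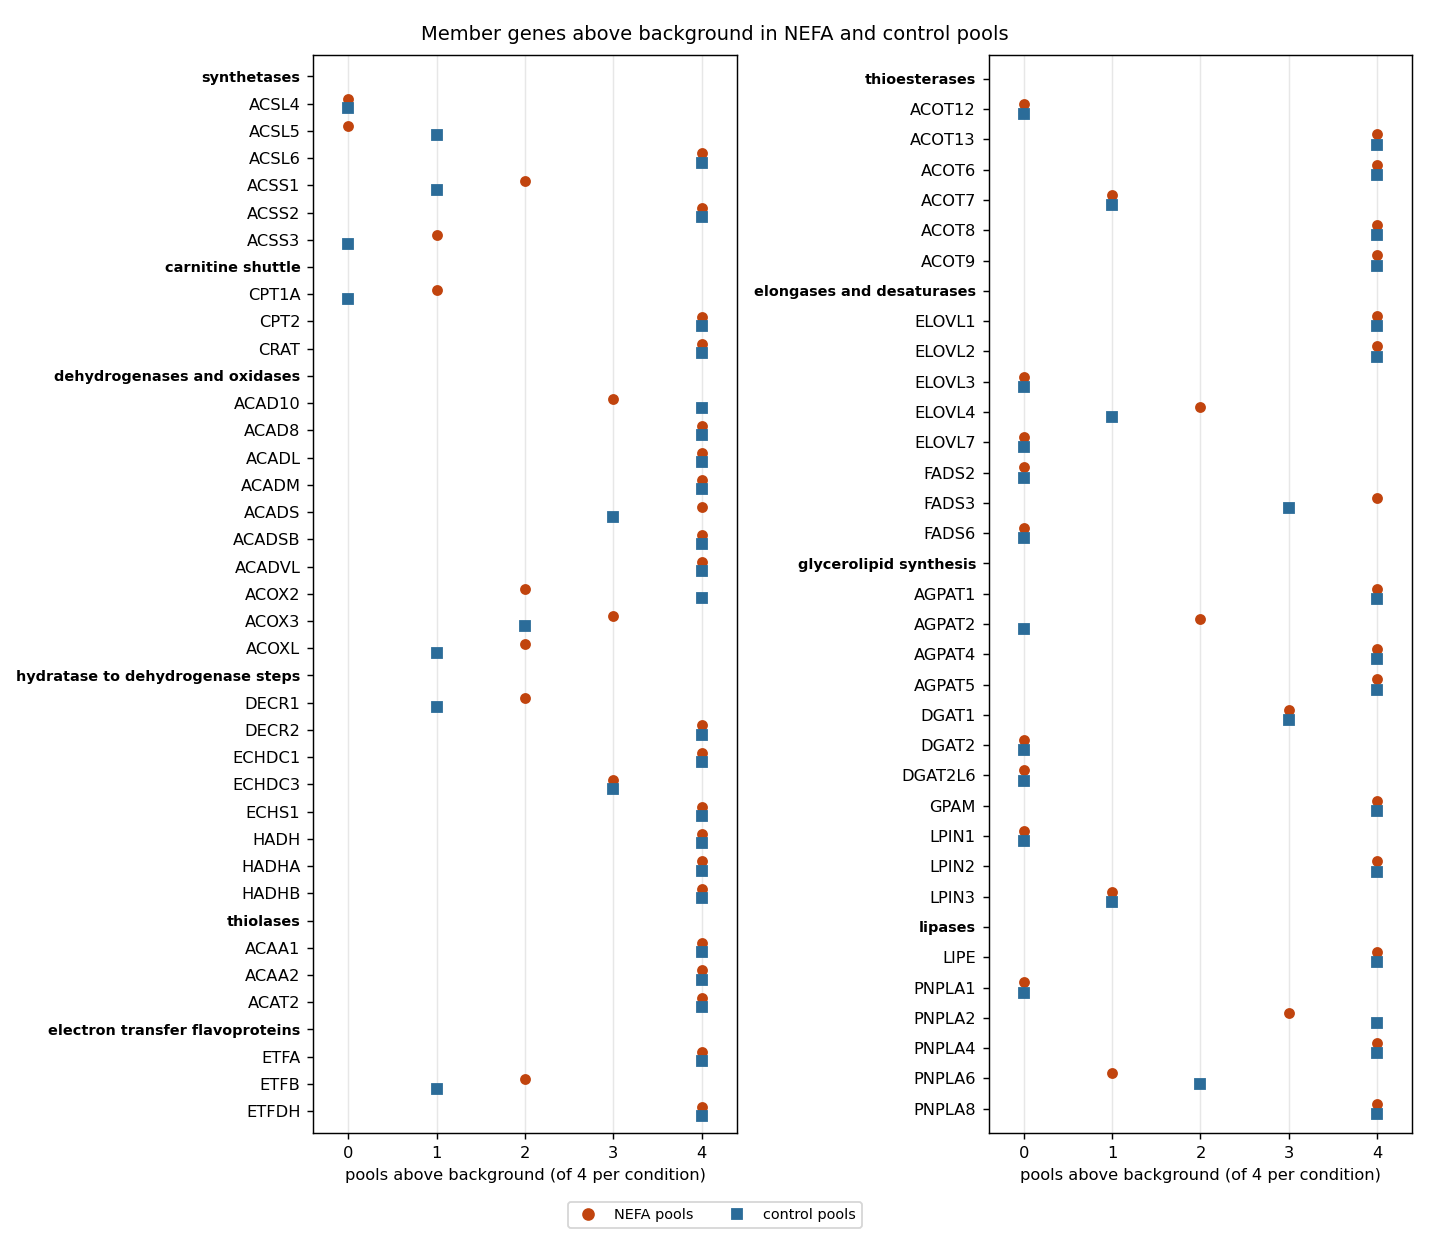
Number of pools, of 4 per condition, in which each of the 64 member genes was above background (brightest kept probe, or the brightest probe where none was kept), with NEFA pools as circles and control pools as squares, by family. Most beta-oxidation genes lie at 4 for both conditions, while DGAT2, LPIN1, FADS2 and ELOVL3 lie at 0 for both.

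The genes without a kept probe were 22. CPT1A, the outer membrane carnitine acyltransferase that sets the pace of mitochondrial fatty acid entry, passed the background limit in 1 NEFA pool and 0 control pools. ETFB, the partner subunit of ETFA, and DECR1, the mitochondrial reductase for unsaturated acyl chains, each reached it in 2 NEFA pools and 1 control pool. ACSL4, a synthetase that prefers arachidonate, FADS2, the desaturase that begins the synthesis of long polyunsaturated fatty acids, ELOVL3, ELOVL7, FADS6, ACOT12, DGAT2, DGAT2L6, LPIN1 and PNPLA1 were above background in no pool. ACSL5, ACSS1, ACSS3, ACOXL, ACOT7, ELOVL4, AGPAT2, LPIN3 and PNPLA6 were so in 1 to 3 of the 8 pools. A probe below the limit gives only a bound on its transcript, so no ratio is given for these genes. Of these 22 genes, 8 passed the limit in more NEFA than control pools (AGPAT2 in 2 and 0), 2 in fewer (ACSL5 in 0 and 1, PNPLA6 in 1 and 2) and 12 in equal numbers. These differences of 1 or 2 pools were not tested, and the same count over all genes without a kept probe was not made. Over all probes, the limit was passed in 43.4% of probe and pool pairs for NEFA and in 42.2% for control.

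No member passed the test between blastocysts from NEFA-exposed and control oocytes. The limma fit on all kept probes, with a term for dye, called 0 of the 57 member probes at an adjusted p of 0.05, beside 0% of the 17144 probes with a p-value. At an unadjusted p under 0.05 it called 0 of 57, beside 1.53% of all tested probes. The smallest unadjusted p of a member in limma was 0.0787, for ACOX2, and the adjusted p of every member was 1.00 after rounding. Ratios below are the log2 of NEFA over control for the brightest kept probe of a gene, as mean over 4 arrays (n = 4) ± SE. The SE is that of the limma fit, taken after the dye term and moderated over all kept probes. It is therefore not the plain spread of the 4 array values. They ran from -0.43 for GPAM to 0.48 for ACADVL, with SEs of 0.13 to 0.35 and a median SE of 0.18. Of 42 genes 17 (40.5%) had a mean above 0 and 25 had one below, beside 2165 above and 2540 below of all 4705 measured genes. Over all kept probes, named or not, 48.4% had a mean above 0. The median of the 42 genes was -0.04, against -0.01 over the measured genes. A mean difference of at least 0.32 on the log2 scale was found for 1 member gene toward NEFA (ACADVL), beside 2.22% of all kept probes, and for 2 toward control (GPAM and ACOX2), beside 4.01%. PNPLA8 alone was above 0 on all 4 arrays (2.38% of genes, against 3.56% of probes). ACADL and ELOVL2 were below 0 on all 4 (4.76%, against 4.29%). The 95% interval of 38 genes lay within 2-fold in either direction, and that of 23 genes within 1.5-fold. The exceptions at 2-fold were ACADVL, GPAM, LPIN2 and LIPE. With no filter on dim probes, 63 of 64 genes lay within 2-fold, so genes at background meet this criterion too. The offset pulls ratios of dim probes toward 0, so a narrow interval there does not show an unchanged transcript. The count of 0 member probes called depends on the labelled dye orientations. When arrays 2 and 3 were given the opposite orientation, an alternative taken up with earlier results of these data known, limma called 6 of 57 member probes and 6.96% of all.

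**Figure D2:**
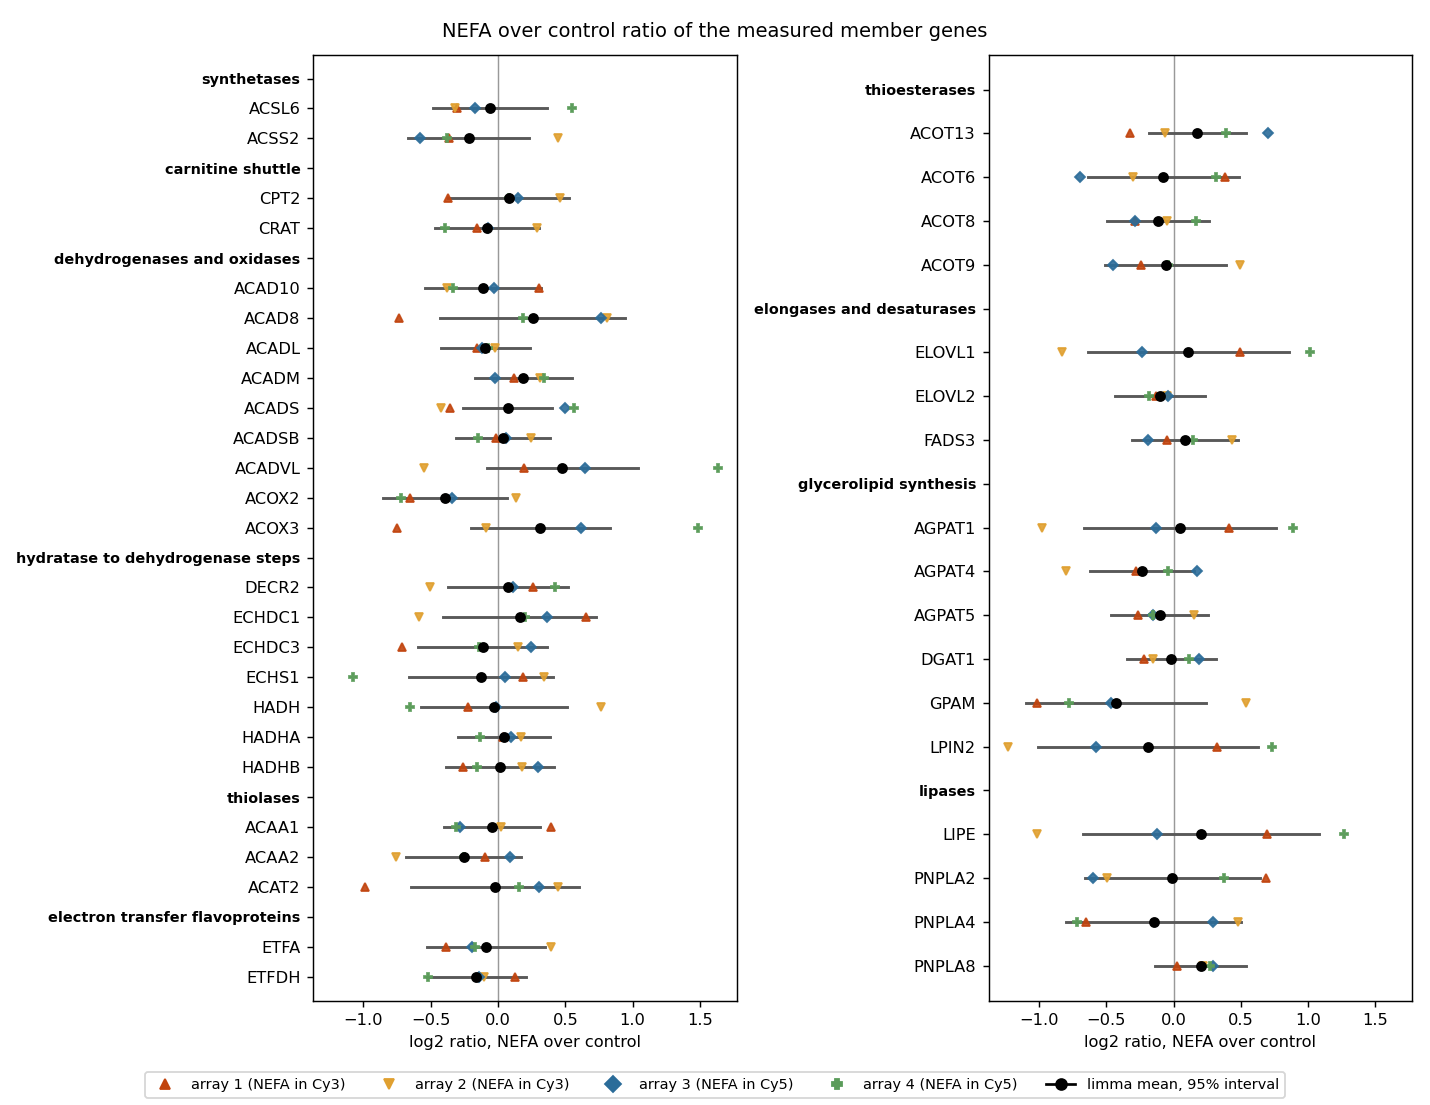
NEFA over control log2 ratio (horizontal axis) of the 42 measured member genes by family, with the limma mean and its 95% interval in black and the 4 arrays as coloured marks. Every interval includes 0, and the arrays of most genes lie on both sides of it.

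Of the synthetases, which join fatty acids to coenzyme A, 2 of 6 genes were measured and both had means below 0. ACSS2, which makes acetyl-CoA from acetate in cytosol and nucleus, had signals of 1265, 1313, 781 and 1220.0 in NEFA pools 1 to 4, against 1628, 963, 1165 and 1584 in control pools 1 to 4 (normalised intensity units). The ranges overlapped, and NEFA was the lower pool on arrays 1, 3 and 4. Its log2 ratio was -0.22 ± 0.18. ACSL6, a long-chain synthetase, was at -0.06 ± 0.17, with 0.55 on array 4 and -0.32 to -0.17 on the others. A second kept probe of ACSL6 was at -0.14 ± 0.29 and had the sign of the first on 1 of 4 arrays. Of the 4 probes of ACSL6, 2 were kept.

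In the carnitine shuttle, CPT2, the inner membrane enzyme that returns the acyl group to coenzyme A in the matrix, had signals of 288, 483, 392 and 352 in NEFA pools, against 372, 352, 354 and 334 in control pools. NEFA pool 1 was the lowest and NEFA pool 2 the highest of the 8, with the control pools between them. The log2 ratio of CPT2 was 0.08 ± 0.18. CRAT, which forms acetylcarnitine, had signals of 289, 557, 379.9 and 361 in NEFA pools and 321, 455, 401 and 475 in control pools. The NEFA pools again spanned the control pools, and the ratio was -0.08 ± 0.16.

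The acyl-CoA dehydrogenases, which take the first electrons from the acyl chain and differ in the chain length they accept, had 9 of 10 genes of this family measured, counting the peroxisomal oxidases. Their median was 0.07, and the median on each array ran from -0.16 on array 1 to 0.19 on array 4. ACADVL, for very long chains, had signals of 630.3, 659, 644 and 1213 in NEFA pools and of 553, 967, 412 and 391 in control pools. NEFA pool 4 stood above all others, and the other NEFA pools lay within the control range. The ratio of ACADVL was 0.48 ± 0.23 (limma, unadjusted p = 0.0817, adjusted p = 1.00). It averaged -0.18 where NEFA was in Cy3 and 1.14 where NEFA was in Cy5, and it was 0.23 without array 4. ACADM, for medium chains, had signals of 1937, 2182, 2163 and 1931 in NEFA pools and 1781, 1756, 2193 and 1528 in control pools. Its ratio was 0.19 ± 0.15, above 0 on 3 of 4 arrays and -0.02 on array 3. ACADL, for long chains, had signals of 2006, 2164, 2534 and 3242 in NEFA pools and 2238, 2201, 2751 and 3417 in control pools. Both sets spanned nearly the same range, yet within every array the NEFA pool was slightly the lower. The ratio of ACADL was -0.09 ± 0.13, with the smallest SD over arrays of any member (0.06). ACADS, for short chains, was at 0.07 ± 0.13, at -0.36 and -0.43 where NEFA was in Cy3 (arrays 1 and 2) and at 0.50 and 0.57 where it was in Cy5.

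Members of this family that act on branched chains from amino acids were ACADSB, of isoleucine breakdown, at 0.04 ± 0.14, and ACAD8, of valine breakdown, at 0.26 ± 0.28. ACAD8 was at -0.74 on array 1 and at 0.81, 0.77 and 0.19 elsewhere, and leaving out array 2 gave -0.13. ACAD10 was at -0.11 ± 0.17. The peroxisomal oxidases ACOX2 and ACOX3, which take branched chains and bile acid intermediates, lay on opposite sides of 0. ACOX2 had signals of 228, 409, 419.9 and 281 in NEFA pools and 359, 374, 531.6 and 462 in control pools. NEFA pools 1 and 4 were below every control pool and NEFA pools 2 and 3 were within the control range. The ratio was -0.40 ± 0.19 (limma, unadjusted p = 0.0787, adjusted p = 1.00) and ranged from -0.59 to -0.20 when 1 array was left out. This probe passed the background limit in 2 NEFA pools and 4 control pools, and was kept through the control pools alone. The other 4 probes of ACOX2 were not kept. ACOX3 was at 0.31 ± 0.21, with -0.75 on array 1 and 1.48 on array 4, and was kept through the NEFA pools alone (3 of 4, against 2 of 4 control pools). With no background correction the ratio of ACOX3 was -0.03.

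The hydratase to dehydrogenase steps had 7 of 8 genes measured, with a median of 0.01 and values from -0.13 to 0.16. HADHA and HADHB encode the 2 subunits of the mitochondrial trifunctional protein, which carries out the later steps of the cycle on long chains, and are neighbours in the pig gene table. HADHA had signals of 6565, 6144, 7823 and 5084 in NEFA pools and 6405, 5449, 7321 and 5568 in control pools. The pools of 1 array lay close together, and the ratio was 0.04 ± 0.14, with a 95% interval of -0.30 to 0.39. HADHB had signals of 2801, 3591, 3818 and 3467 in NEFA pools and 3352, 3178, 3115 and 3855 in control pools. Its ratio was 0.01 ± 0.16, and a second kept probe was at 0.12 ± 0.15. HADHA and HADHB differed in sign on array 1 only. ECHS1, the short-chain enoyl-CoA hydratase, was at -0.13 ± 0.22, at -1.08 on array 4 against 0.05 to 0.34 elsewhere, and leaving out array 4 gave 0.16. HADH, the short-chain hydroxyacyl-CoA dehydrogenase, was at -0.03 ± 0.22 with 0.76 on array 2 and -0.65 on array 4, and its second probe was at -0.01 ± 0.18 with the same sign on each of the 4 arrays. ECHDC1, which removes a toxic side product of acetyl-CoA carboxylase and propionyl-CoA carboxylase, had the smallest unadjusted p of the family (0.512 in limma). Its signals were 35867, 27065, 39386 and 41699.6 in NEFA pools and 22783, 40623, 30561 and 36231 in control pools, and its ratio was 0.16 ± 0.23. ECHDC3 was at -0.12 ± 0.19. DECR2, the peroxisomal dienoyl-CoA reductase, was at 0.07 ± 0.18, with its 2 other kept probes at -0.13 ± 0.21 and 0.01 ± 0.18.

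The thiolases, which cleave acetyl-CoA from the chain, were all measured in all 8 pools and had means below 0. ACAA2, the mitochondrial thiolase of beta-oxidation, had signals of 3329, 1959, 2633 and 3880.1 in NEFA pools and 3561, 3307, 2473 and 4635 in control pools. The largest gap was on array 2, and the NEFA pool was the higher on array 3. The ratio of ACAA2 was -0.25 ± 0.17 and was -0.09 without array 2. The peroxisomal thiolase ACAA1 was at -0.04 ± 0.14. ACAT2, a cytosolic thiolase at the head of sterol synthesis, was at -0.02 ± 0.25, with -0.99 on array 1 and 0.15 to 0.45 on the others.

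The electron transfer flavoproteins link the dehydrogenases to ubiquinone. ETFA, a subunit of the soluble carrier, had signals of 6746, 12386, 6569 and 6716 in NEFA pools and 8809, 9446, 7529.8 and 7563 in control pools. NEFA pool 2 was the highest of the 8 and the other NEFA pools were below every control pool. Its ratio was -0.09 ± 0.18, and its second kept probe was at 0.00 ± 0.21 with -0.91 on array 1. ETFDH, the membrane enzyme that accepts the electrons, had signals of 21346, 19944, 21574 and 17290.0 in NEFA pools and 19567, 21486, 23807 and 24824 in control pools. The ranges overlapped and the ratio was -0.16 ± 0.15, close to the -0.14 ± 0.15 of its second probe.

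Thioesterases, which release free fatty acid from coenzyme A, had 4 of 6 genes measured and a median of -0.07. ACOT13, a mitochondria-associated thioesterase for long chains, had signals of 10124, 17388, 17115 and 16918 in NEFA pools and 12648, 18149, 10514 and 12889 in control pools. The NEFA pool was the lower on arrays 1 and 2 and the higher on arrays 3 and 4, which are the 2 dye orientations. The ratio of ACOT13 was 0.18 ± 0.15, from -0.19 with NEFA in Cy3 to 0.55 with NEFA in Cy5. The mitochondrial ACOT9 was at -0.06 ± 0.18, the peroxisomal ACOT8 at -0.12 ± 0.15 and ACOT6 at -0.07 ± 0.23.

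Of elongases and desaturases 3 of 8 genes were measured. ELOVL2, which elongates polyunsaturated fatty acids, had signals of 299.7, 337, 379 and 292 in NEFA pools and 328, 348, 390.4 and 331 in control pools. The pool ranges overlapped, but the NEFA pool was the lower on each array. The ratio was -0.10 ± 0.13, with an SD over arrays of 0.07 and an interval of -0.44 to 0.23. ELOVL1, which extends saturated chains to very long ones, was at 0.11 ± 0.30, with -0.83 on array 2 and 1.01 on array 4. FADS3, a desaturase whose gene neighbours FADS2, was at 0.09 ± 0.16.

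Genes of glycerolipid synthesis, which esterify fatty acids to glycerol, had 6 of 11 measured, 1 above and 5 below 0, and a median of -0.15. With the orientations of arrays 2 and 3 exchanged that median was 0.021. GPAM, the mitochondrial acyltransferase of the first and rate-limiting step, had signals of 937, 1733, 1721 and 1029 in NEFA pools and 1894, 1195, 2369.7 and 1758 in control pools. NEFA pools 1 and 4 were below every control pool, while NEFA pools 2 and 3 lay within the control range. The ratio of GPAM was the lowest of all members, at -0.43 ± 0.27 (limma, unadjusted p = 0.166, adjusted p = 1.00). It was below 0 on 3 of 4 arrays and 0.54 on array 2, and it was -0.04 without array 1 and -0.82 without array 2. The next enzymes, which acylate lysophosphatidate, were AGPAT1 at 0.05 ± 0.29, AGPAT4 at -0.23 ± 0.16 and AGPAT5 at -0.10 ± 0.15. A second kept probe of AGPAT4 was at 0.03 ± 0.15. LPIN2, a phosphatidate phosphatase, was at -0.19 ± 0.33, with -1.23 on array 2 and 0.73 on array 4. A second probe of LPIN2 was above background in no pool and was not kept. DGAT1, which completes triacylglycerol, had signals of 311, 300.2, 227 and 358 in NEFA pools and 361, 333, 199 and 330.0 in control pools. Its ratio was -0.02 ± 0.13. The second kept probe of DGAT1 was at 0.20 ± 0.14, above 0 on all 4 arrays, and passed the background limit in 4 NEFA pools and 2 control pools. It was the 1 member probe whose signals did not overlap between NEFA and control pools (1.75% of 57, against 1.17% of all kept probes), and it was kept through the NEFA pools alone.

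Lipases had 4 of 6 genes measured and a median of 0.10. PNPLA2, the lipase that begins triacylglycerol breakdown on lipid droplets, had signals of 884, 606, 302 and 841 in NEFA pools and 550.3, 851, 457 and 649 in control pools. The NEFA pool was the higher on arrays 1 and 4 and the lower on arrays 2 and 3, and the ratio was -0.01 ± 0.26. LIPE, hormone-sensitive lipase, which acts on the diacylglycerol so formed, had signals of 7058, 5663, 5545 and 11141 in NEFA pools and 4359.5, 11439, 6049 and 4638 in control pools. NEFA pool 4 and control pool 2 were about equally high. The ratio of LIPE was 0.20 ± 0.35, the SE being the largest of any member. PNPLA8, a phospholipase of mitochondria and peroxisomes, had signals of 299, 398, 467 and 489 in NEFA pools and 294, 341, 381 and 406 in control pools. The ranges overlapped, and the NEFA pool was the higher within every array. The ratio of PNPLA8 was 0.20 ± 0.14, from 0.03 on array 1 to 0.29 on array 3. PNPLA4, a retinyl ester and triacylglycerol hydrolase, was at -0.15 ± 0.26.

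**Figure D3:**
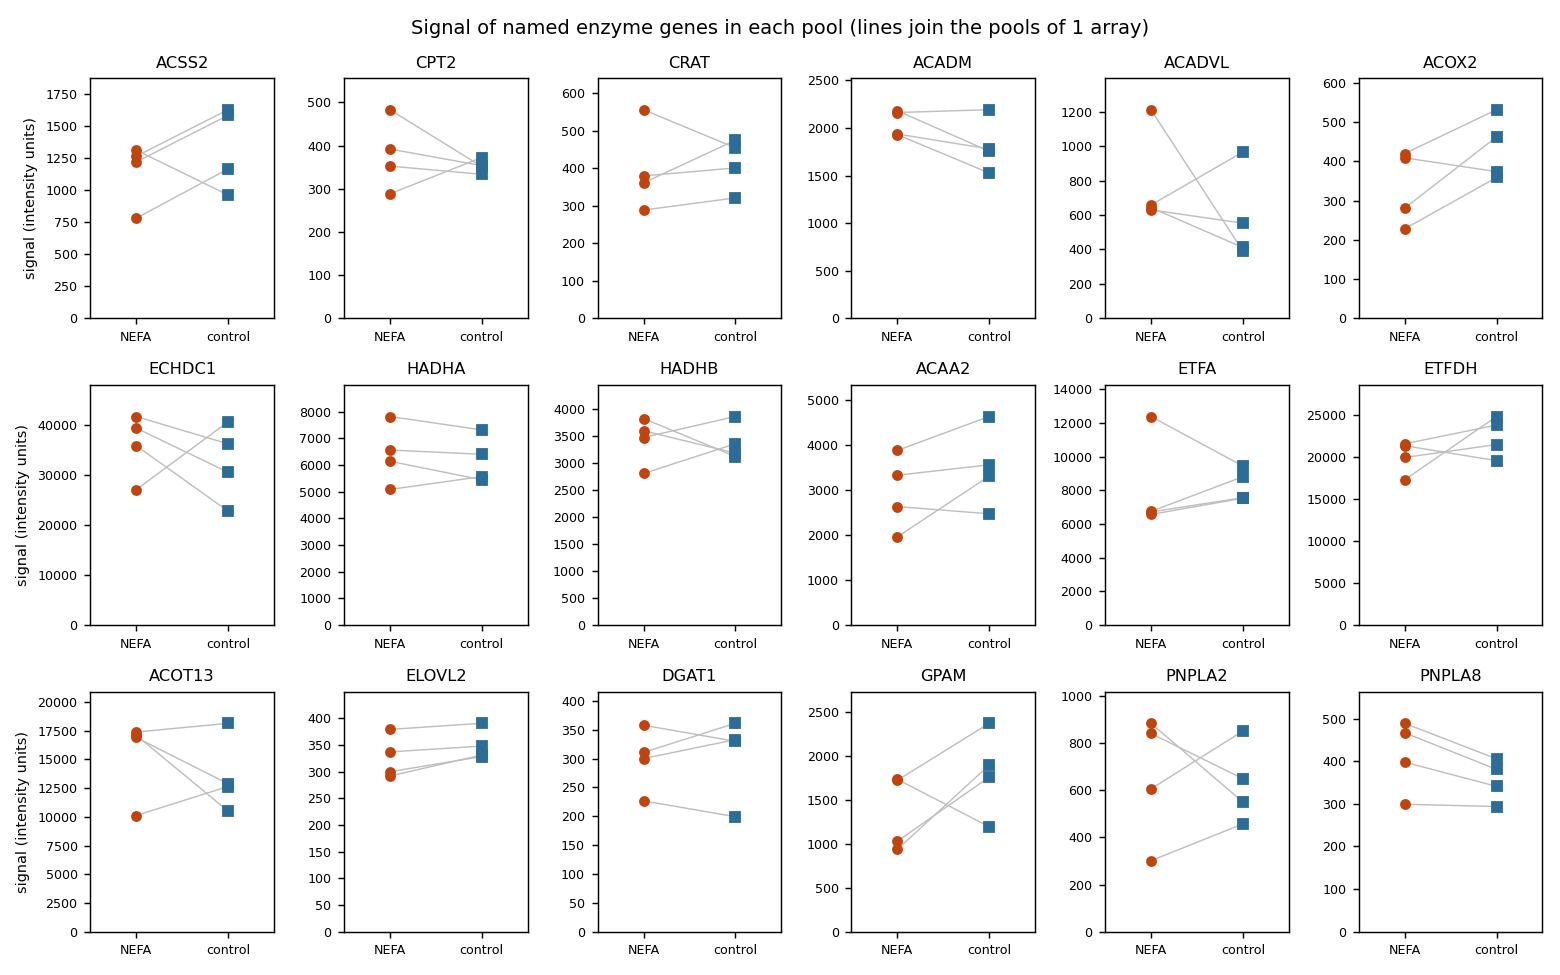
Normalised signal (intensity units, axis from 0) of 18 member genes in the 4 NEFA pools (left, circles) and the 4 control pools (right, squares), with lines joining the pools of 1 array. The 2 sets of pools overlap for every gene, as for GPAM, whose NEFA pools run from 937 to 1733 and control pools from 1195 to 2369.7.

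The spread between arrays was larger than the mean difference for most members. The SD over the 4 arrays had a median of 0.41 for the 42 genes, against 0.35 for all kept probes, and exceeded the size of the mean for 37 of 42 (88.1%), beside 91.5% of all kept probes. It was highest for LIPE (0.99), ACOX3 (0.96), ACADVL (0.91) and LPIN2 (0.88), and lowest for ACADL (0.06), ELOVL2 (0.07), PNPLA8 (0.12) and HADHA (0.13). This SD also holds the dye effect of a probe, which the limma fit takes out, so it is not the error of the fitted mean. The fitted dye effect (log2 of Cy5 over Cy3) was 0.36 for LIPE, 0.73 for ACOX3, 0.66 for ACADVL and 0.27 for LPIN2. Family medians crossed 0 between arrays in all 10 families. The synthetase and thioesterase medians were lowest on array 3 (-0.37 each). Those of the thiolases (-0.26) and flavoproteins (-0.35) were lowest on array 4, and that of glycerolipid synthesis was lowest on array 2 (-0.47). The median over all members stayed between -0.16 and 0.02.

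**Figure D4:**
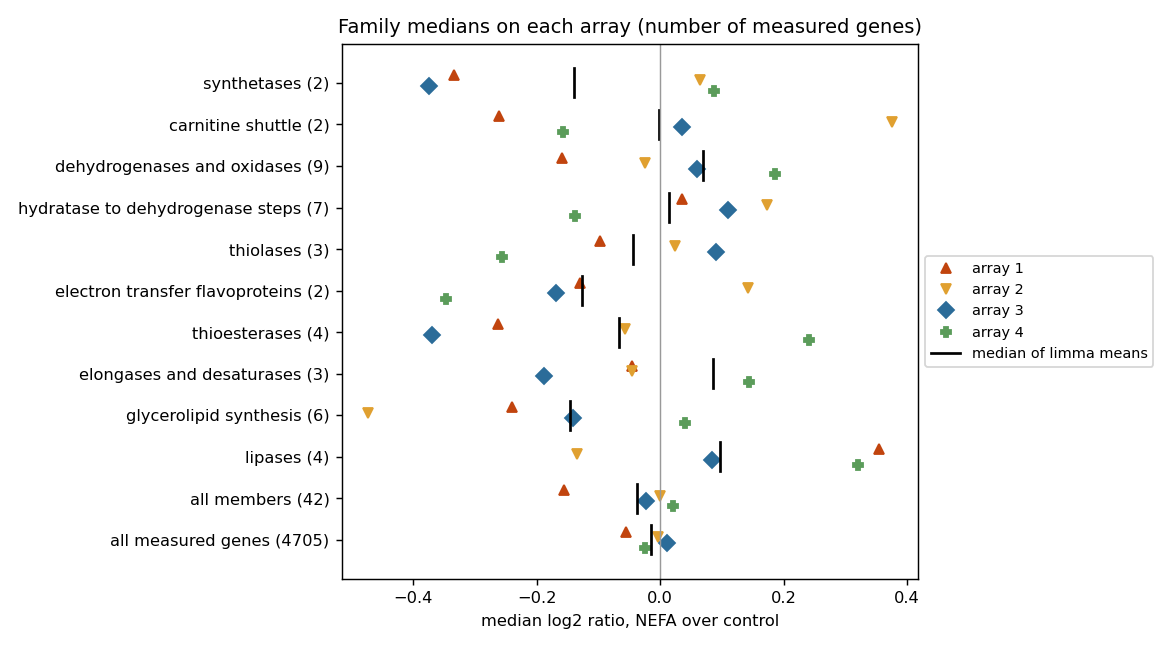
Median NEFA over control log2 ratio of each family on each of the 4 arrays (coloured marks), with the median of the limma means as a black bar and the number of measured genes in brackets. Families of 2 to 9 genes shift from array to array, while the medians of all members and of all measured genes stay near 0.

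Some members shared an order of signs over the arrays. LIPE, PNPLA2, LPIN2, AGPAT1, ELOVL1 and ACOT6 were above 0 on arrays 1 and 4 and below 0 on arrays 2 and 3. They were 14.3% of member genes, against 9.20% of all measured genes with these signs. GPAM, ACSS2, AGPAT5, ACOT9, ACOX2, CRAT, ETFA and HADH were above 0 on array 2 alone, which was 19.0% of member genes, against 10.6% of all. These 2 orders hold the most member genes and were not chosen before the counts were seen. Some other orders were rarer among members than among all measured genes, such as above 0 on arrays 1 and 2 alone (ACAA1, 2.38% against 8.34%). Over the 42 genes the ratios of array 2 correlated at r = -0.62 with those of array 1 and at r = -0.58 with those of array 4, against -0.24 and -0.54 over all kept probes. These values describe genes that share arrays, pools and depth of labelling and carry no test. Exchanging the orientations of arrays 2 and 3 turns the signs of the first set to above 0 on all 4 arrays by construction. The 6 member probes called there were LIPE at 0.77, LPIN2 at 0.72, ELOVL1 at 0.64, AGPAT1 at 0.60 and PNPLA2 at 0.54, and PNPLA4, of the mirrored signs, at -0.54. Exchanging arrays 1 and 4 instead would turn every one of these signs, so they give no direction of a NEFA effect.

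**Figure D5:**
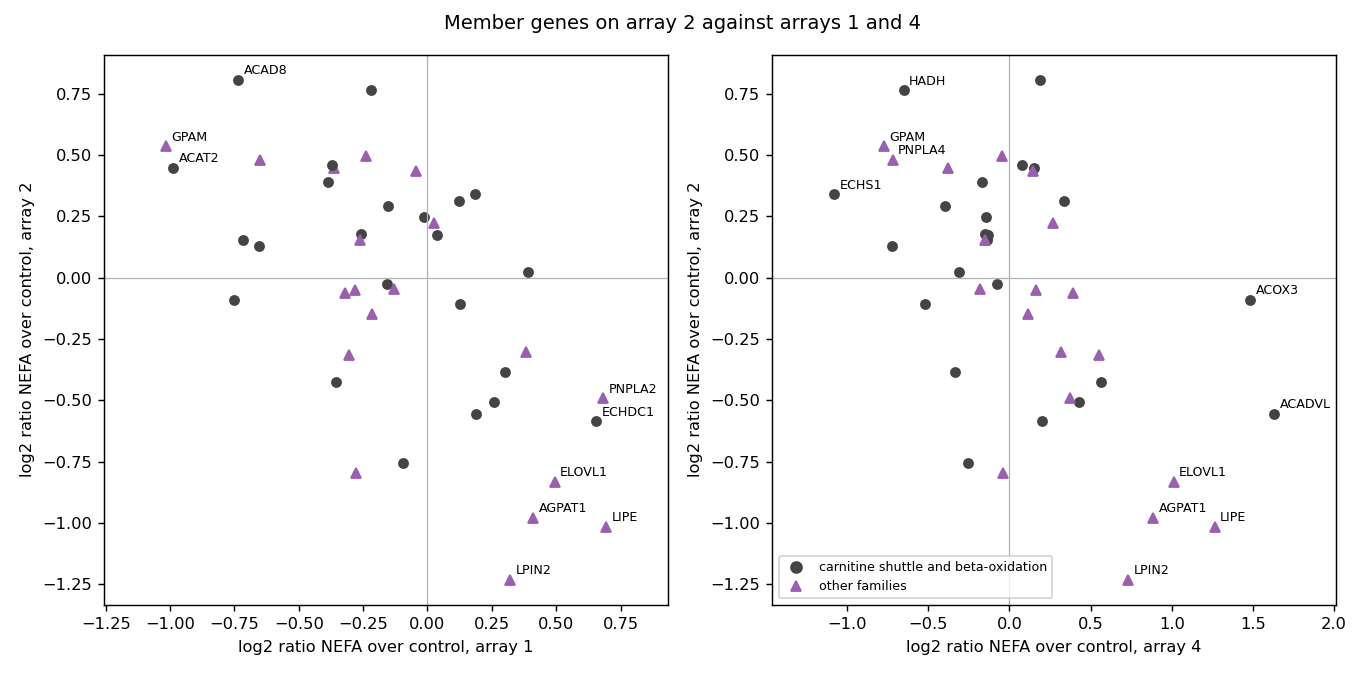
NEFA over control log2 ratios of the 42 member genes on array 2 (vertical axes) against array 1 (left) and array 4 (right), with carnitine shuttle and beta-oxidation genes as circles and other families as triangles. LIPE, LPIN2, AGPAT1 and ELOVL1 lie at the lower right in both panels and GPAM at the upper left.

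For 14 genes more than 1 probe was kept, and the probes of 8 agreed in sign of the mean while those of 6 (ACADSB, AGPAT4, DECR2, DGAT1, ELOVL1 and ETFA) did not. The means of different probes of a gene lay at most 0.26 apart. That gap, between the probes of AGPAT4, was larger than the SE of either, and no difference between probes was tested. The 2 probes of HADH, ACAD8 and ELOVL1 had the same sign on each of the 4 arrays, also where that sign changed from array to array. For CRAT, ACADL, ACADS, ACOX2, LPIN2 and PNPLA4 a single probe was kept, and their other probes did not pass the filter.

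Other genes of fatty acid handling that the symbol rule does not take were counted beside them. Of 63 listed genes of import, peroxisomal and branched-chain oxidation, ketone bodies, synthesis, esterification, lipolysis and their regulators, 42 had a probe and 29 were measured. In limma 0 of 29 passed in either direction, beside 0% of all tested probes. An unadjusted p under 0.05 was found for 1 of 29, beside 1.53% of all tested probes. Of the 29, 10 had means above 0 and 19 below, with a median of -0.05, beside 2165 above and 2540 below of all 4705 measured genes. The 1 gene with an unadjusted p under 0.05 was MECR, the last enzyme of mitochondrial fatty acid synthesis, at -0.55 ± 0.17 (limma, unadjusted p = 0.019, adjusted p = 1.00), below 0 on 4 of 4 arrays.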

How the data were processed

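Amplified RNA of blastocyst pools was labelled with Cy3 or Cy5 and read on 2-colour oligonucleotide arrays, per the labels' protocols. The deposited scanner files hold unnormalised median spot and background intensities per dye, per the file headers. A further deposited table, made by the authors, gives log2 ratios per probe. Set against the scanner values it correlated at r = 0.967 to 0.995 with Cy5 over Cy3 (slopes 0.975 to 1.04), was not turned for dye orientation, and had column medians of -0.023 to -0.020. How it was centred stays unknown. It served as an alternative. Limma is named without its version, per the submitters' processing notes, and no source used here names a scanner or its software.

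Intensities were corrected with normexp (offset 50) and loess, with control spots at weight 0. Between 35 and 75 flagged probes per array were left out there, and saturated spots were kept (none among members). The background limit used 153 negative control spots. Signals per pool are channel intensities after loess and Aquantile scaling. Log2 ratios were fitted in limma 3.58.1 (R 4.3.3) with a dye term and a NEFA term, leaving 2 residual degrees of freedom plus 3.68 prior ones. P-values are two-sided, with Benjamini-Hochberg adjustment over all kept probes. The number of arrays limits precision, and the offset pulls ratios of dim probes toward 0. The fit was tested on data simulated under its own assumptions, with independent errors. Such data cannot show that these assumptions hold for the arrays used here. Gene symbols came from the platform annotation (1 symbol for 13146 probes, several for 0), which can be old. Probe sequences were not used here. Every member gene with a kept probe is named. Pool signals are given for the gene with the smallest p in each family and for a fixed list of central enzymes, and those of ACADL and LIPE in addition, chosen after their values were seen. Members and lists were chosen with earlier results of these data known.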

Additional observations from a re-analysis of the deposited data

Results flagged for a closer look

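Among 53 sets of 4 array values (42 member genes, 10 families and all members), 1 had an array set apart from the rest by Dixon's criterion, which chance alone meets in about 1 set in 20. It was ACSL6, at 0.55 on array 4 and between -0.32 and -0.17 on the other arrays. The gap was 0.83 of the whole range, just past the critical value. Its second kept probe was at -0.07 on array 4 and did not share the high value.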

How the results depend on the processing

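Alternatives were another background correction (none, or an offset of 10), median centring, 2 other filters, no dye term, the authors' deposited table, each array left out, the exchanged orientations and, for genes and families, the mean over a gene's probes. The count of member probes past an adjusted p of 0.05 stayed at 0 in every fit except that with the orientations of arrays 2 and 3 exchanged, where it was 6 (1193 over all probes, 14 members at an unadjusted p under 0.05, and 12 genes at least 0.32 apart in log2). Over all probes 2 passed with the authors' deposited table. With no filter on dim probes 2 member probes had an unadjusted p under 0.05 and 63 of 64 genes an interval within 2-fold. Median centring put 5 genes at least 0.32 apart in log2, against 3 in the fit as reported. With 1 array left out, the calls stayed at 0 for all probes and for members, 0 to 4 member probes had an unadjusted p under 0.05, 4 to 11 genes were at least 0.32 apart and 34 to 38 had an interval within 2-fold. The elongase and desaturase median then ran from -0.080 to 0.17, and that of the hydratase to dehydrogenase steps was -0.22 with the exchanged orientations. No other family median moved by more than the spread between arrays, but 2 to 4 of 10 changed sign when 1 array was left out (lipases to -0.044 and thioesterases to 0.034 without array 1), 5 with the exchanged orientations, 3 with no filter, 2 with median centring and 1 each with no background correction, the deposited table and the mean over probes. Leaving out single arrays changed the value of 40 of 42 genes (not ACADS and PNPLA8) more than 1.5 times, and turned the sign of 8 to 14. Median centring turned 5 signs, no background correction 3, and the exchanged orientations 17. Of 42 genes, 9 kept 1 sign in every setting run for them: ACADM, ACADS and ACADVL above 0, and ACADL, ACOX2, ACSS2, ELOVL2, ETFDH and GPAM below. Some settings could not turn these signs. The 2 filters and the fit with no dye term left a gene's ratio as it was, as did the mean over probes for genes with 1 kept probe. The stricter filter was not run for ACADS and ACOX2. The same share over all measured genes was not counted, so the 9 signs give no direction of a NEFA effect. The cause of the changes between settings was not tested. Dim probes such as CPT2, ELOVL2, DGAT1 and PNPLA8 lay near the limit of detection.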
